A study of Mus musculus with 16 samples.

Results

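Mitochondrial ribosomal proteins are made in the cytosol from nuclear genes and build the ribosome that works inside mitochondria. Their transcripts were followed here in type 2 cells of mouse alveoli (AT2 cells), which line the air sacs and secrete surfactant, after sorting by surface CD44. The members are the protein-coding genes whose symbol is Mrpl or Mrps followed by a digit, where Mrpl names a protein of the large subunit and Mrps one of the small subunit. The RefSeq gene table held 84 rows with such symbols, of which 6 not annotated as protein coding were left out. This gave 78 members among the 27179 rows of the count table, 49 for the large and 29 for the small subunit. Of these, 77 passed the filter on low counts, and Mrpl36, with 0 to 3 counts in each library, did not.

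Lungs of 4 control and 4 Sftpc mutant mice were each sorted into a CD44- and a CD44+ AT2 fraction, which made 16 libraries in 4 groups of 4. The gate kept live cells lacking CD45, CD31 and CD104 that carried Epcam and much CD200. The labels give the genotypes as SP-C WT and SP-C Mutant, and all 16 samples, controls included, carry the treatment OG TMX. The columns of the table are named R26 or OG with a number, taken as that of the animal. The groups are called OG CD44-, OG CD44+, R26 CD44- and R26 CD44+ here. No label ties a prefix to a genotype, so taking R26 for control and OG for mutant is an inference that may be wrong, whereas CD44+ against CD44- within a prefix does not rest on it. The mutation, its promoter or Cre, the strain and the age are not given in the sources used here.

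Levels are CPM, counts scaled to a common library size, on TMM-scaled libraries of 9022471 to 21363816 counts, as mean ± SD over n = 4, and values of single libraries follow the order of animals 1, 2, 7 and 8 for R26 and 3, 5, 6 and 7 for OG. Each difference is given as a log2 fold change ± SE by edgeR's quasi-likelihood test, called at a Benjamini-Hochberg adjusted p under 0.05 over 15516 genes. The summed level of 10 AT2 markers, surfactant genes among them, was 162317 to 191939 CPM in R26 CD44-, 108348 to 155865 in R26 CD44+, 46895 to 50503 in OG CD44- and 21607 to 25870 in OG CD44+ libraries, and none of the 10 was at 0 in a group. Summed markers of other cells were lower in every group, but sums over unlike genes do not give the shares of cells. The 8 AT1 markers ran from 1749 to 1947 CPM in R26 CD44-, 2339 to 2644 in R26 CD44+, 3711.5 to 4012 in OG CD44- and 3486 to 3909 in OG CD44+ libraries. The 8 fibroblast and mural markers ran from 110 to 136, 739 to 1510, 725 to 789 and 1612 to 2844 CPM in the same order of groups. The 10 leukocyte markers ran from 23.6 to 34.8, 750 to 1988, 70.5 to 105 and 775 to 1969 CPM, with Marco and S100a8 at 0 in R26 CD44- and Marco at 0 in R26 CD44+. The 8 ciliated cell markers ran from 113 to 127, 156 to 271, 173 to 175 and 303 to 392 CPM, the 6 club cell markers from 557 to 1184, 1799.5 to 3288, 638 to 761 and 1845 to 2546 CPM, and the 6 endothelial markers from 11.4 to 19.2, 68.7 to 91.6, 20.0 to 24.8 and 9.84 to 20.6 CPM. The 8 cycling markers ran from 69.2 to 116, 131 to 307, 108 to 137 and 158 to 171 CPM. A single R26 CD44+ library reached 45.0 CPM over the 3 basal cell markers. The part of these markers in the results was not tested, and in bulk libraries fewer cells of a type and less RNA per cell cannot be told apart.

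The mitochondrial ribosome reads the mRNAs of the mitochondrial genome, which encode 13 hydrophobic core subunits of the respiratory chain and ATP synthase. Its 12S and 16S ribosomal RNAs come from the same genome, so each particle joins RNA made in the organelle with proteins imported from the cytosol, and dedicated GTPases, helicases and methyltransferases assemble it. Promoters of genes for mitochondrial proteins are known to carry sites for NRF1, for ETS family factors such as GABP, and for YY1. AT2 cells hold many mitochondria and draw on them for surfactant lipid synthesis.

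RefSeq promoters of the GRCm38.p6 build were matched for 69 of the 78 members, each window running from 250 bases before to 50 bases after the start. Letters searched on both strands were the NRF1 motif of 10 letters, CCGGAAG for ETS factors, AAGATGGC for YY1 and CACGTG for the E-box, and none of these lies within another. The NRF1 letters stood in 18.8% of the members' windows against 4.8% of all 27025 windows in the table and 6.6% of the 17492 windows of protein-coding genes. The ETS letters stood in 36.2% against 9.1% and 11.9%, and the YY1 letters in 17.4% against 2.9% and 3.2%. The E-box stood in 7.2% of members' windows against 7.2% and 7.9%. At least 1 of NRF1, ETS and YY1 was found in 60.9% of members' windows, against 15.2% and 19.5%. The windows' median GC content was 58.3% for members and 56.3% for protein-coding genes. These are matches of letters, not bound sites.

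The 100 bases before the start of 6 members are shown, 5′ to 3′ on the gene's strand, with motif letters in capitals. They were chosen for the results that follow, and Mrps22, Mrps18a and Mrps6 were among the members that differed most between OG and R26. Mrps9 fell in OG against R26, where most of the others rose. Mrpl43 rose there too, and went against most of the others only where the CD44 difference was compared between OG and R26. Mrpl45 shows the NRF1 letters.
Mrps22, chr9:98601680-98601779, reverse strand: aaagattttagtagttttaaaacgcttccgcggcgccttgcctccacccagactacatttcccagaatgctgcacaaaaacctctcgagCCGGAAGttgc
Mrps18a, chr17:46110904-46111003, forward strand: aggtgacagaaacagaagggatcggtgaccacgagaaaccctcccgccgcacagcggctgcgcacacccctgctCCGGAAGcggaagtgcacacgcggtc
Mrpl43, chr19:45006443-45006542, reverse strand: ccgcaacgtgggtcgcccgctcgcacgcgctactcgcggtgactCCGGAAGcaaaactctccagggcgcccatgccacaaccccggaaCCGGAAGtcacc
Mrpl45, chr11:97315616-97315715, forward strand: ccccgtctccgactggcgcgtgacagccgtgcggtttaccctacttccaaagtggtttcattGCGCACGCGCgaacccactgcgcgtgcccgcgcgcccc
Mrps6, chr16:92058236-92058335, forward strand: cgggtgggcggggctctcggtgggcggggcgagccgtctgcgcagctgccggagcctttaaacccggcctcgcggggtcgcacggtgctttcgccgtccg
Mrps9, chr1:42851133-42851232, forward strand: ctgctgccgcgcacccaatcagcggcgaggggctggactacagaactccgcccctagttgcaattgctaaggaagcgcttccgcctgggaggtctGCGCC
The capitals mark the ETS letters in Mrps22 and Mrps18a, 2 copies of them in Mrpl43, and the NRF1 letters in Mrpl45, whose whole window held 3 copies. Mrps6 held none of the 4 motifs. In Mrps9 the NRF1 letters straddle the start, and the capitals are the first 5 of them on the strand shown. Counted over members, 35 of the 41 tested with NRF1, ETS or YY1 letters were called higher in OG CD44- than in R26 CD44- cells, and so were 22 of the 27 with a window and none of these letters, beside 39.4% of all genes tested. In CD44+ cells these counts were 30 of 41 and 17 of 27, beside 34.5% of all genes tested.

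In CD44- cells the transcripts of both subunits were more abundant in OG than in R26 libraries. Summed over 48 large subunit genes, the levels were 651, 660.5, 610.3 and 613 CPM in the R26 animals and 987, 1003, 1016 and 1041 CPM in the OG animals. Summed over 29 small subunit genes, they were 286, 298, 286 and 283 CPM in R26 and 428, 431, 438 and 429.6 CPM in OG. The lowest OG library lay above the highest R26 library in both sums. Of the 77 members tested, 65 were called higher and 2 lower, while 39.4% of all genes tested were called higher and 29.6% lower. All 4 OG libraries stood above all 4 R26 libraries for 64 members and below them for 1, and over all genes these shares were 38.6% and 29%. The median log2 fold change was 0.69 for the large and 0.64 for the small subunit, beside 0.12 for all genes tested. With an OG library as the TMM reference the median of all genes fell to between 0 and 0.03. The members' median exceeded that of all genes by 0.56 both with the default and with such a reference. AT2 markers moved the other way in the same comparison, with all 10 called lower. The AT1, fibroblast, leukocyte, ciliated and endothelial marker sums were higher in every OG CD44- library than in any R26 CD44- library, as given above. Called higher were 7 of 8 AT1, 8 of 8 fibroblast, 6 of 8 tested leukocyte and 7 of 8 ciliated markers, but only 2 of 6 endothelial ones. Of 8 cycling markers 4 were higher and 1 lower, and of 6 club markers 1 was lower. Their part in the result was not tested.

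**Figure D1:**
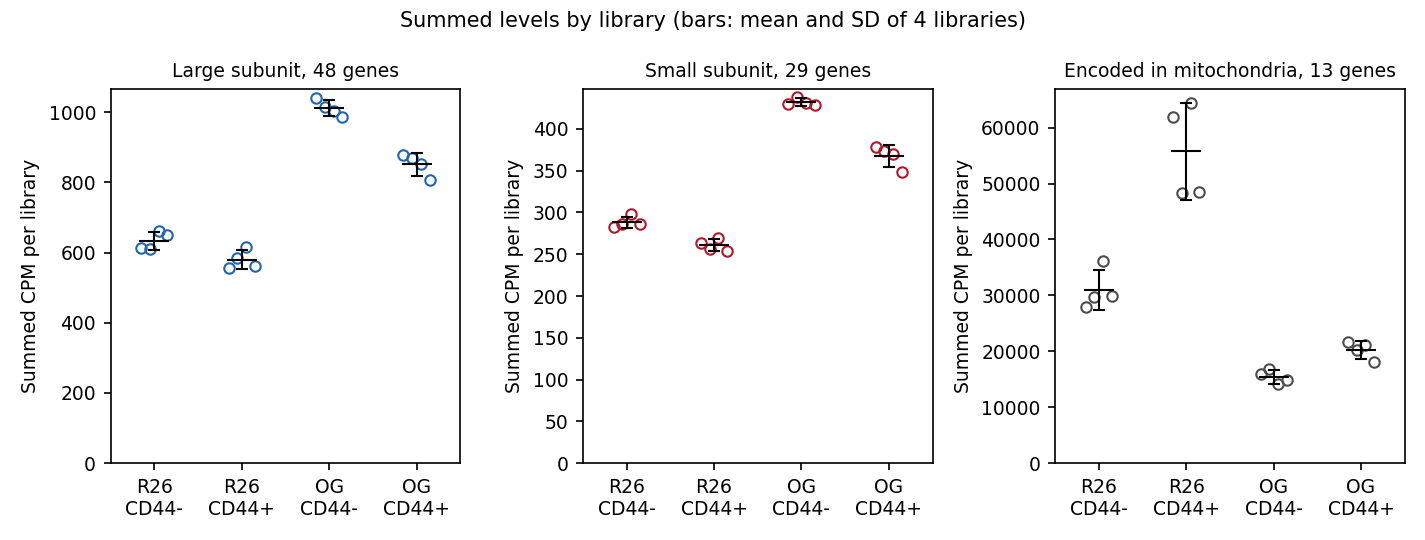
Summed CPM in each of the 16 libraries (points) for large subunit members, small subunit members and the 13 genes encoded in mitochondria, with bars at the mean and SD of 4 libraries per group. Both subunit sums are higher in every OG library than in any R26 library, and the mitochondrially encoded sum is lower in every OG library.

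Large subunit genes with the smallest adjusted p in CD44- cells were Mrpl33, Mrpl10, Mrpl19, Mrpl51, Mrpl37 and Mrpl11. Mrpl10 and Mrpl11 belong to the stalk and stalk base, where translation factors dock. Mrpl11 was at 5.79, 4.91, 6.58 and 4.97 CPM in the R26 and 14.7, 16.2, 15.8 and 16.6 CPM in the OG animals. The groups lay far apart, and at a log2 fold change of 1.503 ± 0.13 (edgeR adjusted p = 3.37e-10) this was the widest difference among the members. Mrpl10, an abundant member, was at 30.3, 27.8, 25.9 and 26.9 CPM in R26 and 48.1, 48.6, 48.7 and 51.7 in OG, without overlap (0.83 ± 0.06, edgeR adjusted p = 3.13e-11). Mrpl12, which also binds the mitochondrial RNA polymerase, rose from 13.6 ± 0.709 to 22.01 ± 1.75 CPM (0.69 ± 0.09).

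Mrpl33, a small protein of the large subunit body, was at 14.4, 12.3, 15.1 and 13.5 CPM in R26 and 29.9, 31.5, 29.8 and 31.5 CPM in OG CD44- cells. Every OG library was well above every R26 library (1.15 ± 0.08, edgeR adjusted p = 4.36e-12, the smallest among members). Mrpl19 rose by 1.47 ± 0.11 on the log2 scale, from 7.56 ± 1.27 to 20.8 ± 1.09 CPM. Mrpl19 shares 36.0% of its exon bases with Gcfc2 on the other strand, and Gcfc2 itself fell by 0.50 ± 0.20. Around the exit of the peptide tunnel, Mrpl45, which tethers the ribosome to the inner membrane, rose from 7.79 ± 0.324 to 14.5 ± 1.15 CPM (0.89 ± 0.12), and Mrpl47 rose from 4.86 ± 0.584 to 10.7 ± 0.727 CPM (1.15 ± 0.13). On the other strand Mrpl47 shares 13.9% of its exon bases with Ndufb5 and 10.2% with Actl6a. In CD44+ cells Ndufb5 was itself higher in OG than in R26, by 0.74. Mrpl38, in the central protuberance that faces the small subunit head, rose from 29.4 ± 2.48 to 53.9 ± 2.75 CPM (0.88 ± 0.08). Mrpl58, a hydrolase built into the particle that frees peptides from stalled ribosomes, rose by 0.60 ± 0.11.

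In the small subunit the smallest adjusted p values belonged to Mrps2, Mrps18a, Mrps6, Mrps7, Mrps22 and Mrps34. Mrps22, a protein without a bacterial counterpart, was at 6.20, 5.50, 5.26 and 5.36 CPM in R26 and 14.6, 14.7, 13.6 and 14.9 CPM in OG. The groups did not overlap and the log2 fold change was 1.37 ± 0.12 (edgeR adjusted p = 3.16e-10). Mrps2 was at 11.7, 12.4, 10.7 and 12.3 CPM in R26 and 24.3, 25.5, 24.2 and 24.8 CPM in OG, again apart (1.07 ± 0.08, edgeR adjusted p = 2.66e-11). Mrps7, of the head of the subunit, was at 17.1, 19.7, 18.9 and 18.3 CPM and 37.4, 34.8, 35.2 and 35.4 CPM (0.95 ± 0.08). The groups of Mrps7 lay apart as well. Mrps6 was at 6.36, 7.75, 7.70 and 6.59 CPM in R26 and 18.3, 18.7, 19.5 and 18.1 CPM in OG (1.40 ± 0.11, edgeR adjusted p = 6.59e-11). Its exons overlap those of Gm49711 and Slc5a3 on the same strand, by 19.9% and 10.4% of its bases, and Slc5a3, a myo-inositol transporter, also rose (0.68 ± 0.12). Mrps34 rose by 1.001 ± 0.09, while Mapk8ip3 and Nme3, which share 63.4% and 37.0% of its exon bases, fell by 0.64 ± 0.10 and 0.51 ± 0.10.

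Both members that fell in OG CD44- cells carry small subunit symbols. Mrps9, whose tail in ribosomes of this kind reaches toward the tRNA of the growing chain, was at 32.1, 34.6, 35.1 and 38.4 CPM in R26 and 19.1, 19.0, 20.4 and 22.3 CPM in OG. Every OG library was below every R26 library, with a log2 fold change of -0.80 ± 0.09 (edgeR adjusted p = 1.62e-08). Mrps9 lies on chromosome 1, 42851233 to 42905683, forward strand (GRCm38), and the only annotated gene overlapping it, a snoRNA gene, shares none of its exons. Mrps25 was at 12.8, 12.2, 12.2 and 10.6 CPM in R26 and 10.9, 8.69, 10.04 and 9.23 CPM in OG, with overlapping groups (-0.29 ± 0.11, edgeR adjusted p = 0.0264). The Mrps25 call was lost without the OG CD44- library of animal 7 or 5 (adjusted p = 0.0713 and 0.0882) and without the low count filter (0.119). Of its exon bases 69.8% are shared with Nr2c2 on the other strand, which stood at 0.03 ± 0.06. Mrpl49 was at 20.1, 18.6, 17.3 and 17.6 CPM and 17.5, 17.0, 17.6 and 20.1 CPM, with overlapping groups and a log2 fold change of -0.03 ± 0.08 (edgeR adjusted p = 0.800).

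The other 9 members without a call in CD44- cells were Mrpl4, Mrpl23, Mrpl24, Mrpl27, Mrpl48, Mrps16, Mrps24, Mrps33 and Mrps36, with log2 fold changes of -0.24 to 0.34. Mrpl23 was counted 0 to 15 times in a library, at 0.516 ± 0.289 CPM in R26 CD44-, and its log2 fold change of 0.26 ± 0.54 carried the widest SE of the members. Mrps36 was at 1.48 ± 0.147 CPM in R26 and 1.26 ± 0.210 CPM in OG CD44- cells (-0.24 ± 0.28). Its product is now known as a part of the 2-oxoglutarate dehydrogenase complex, not of the ribosome. Mrps18a and Mrps30 carry small subunit symbols but sit in the large subunit in current structures, and both rose (1.20 ± 0.09 and 0.67 ± 0.09). The counting setting for strand is not given in the sources used here, so reads of overlapping genes cannot be told apart. Among the 52 tested members that share under 5% of their exon bases with another gene, 45 were called higher and 1 lower.

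**Figure D2:**
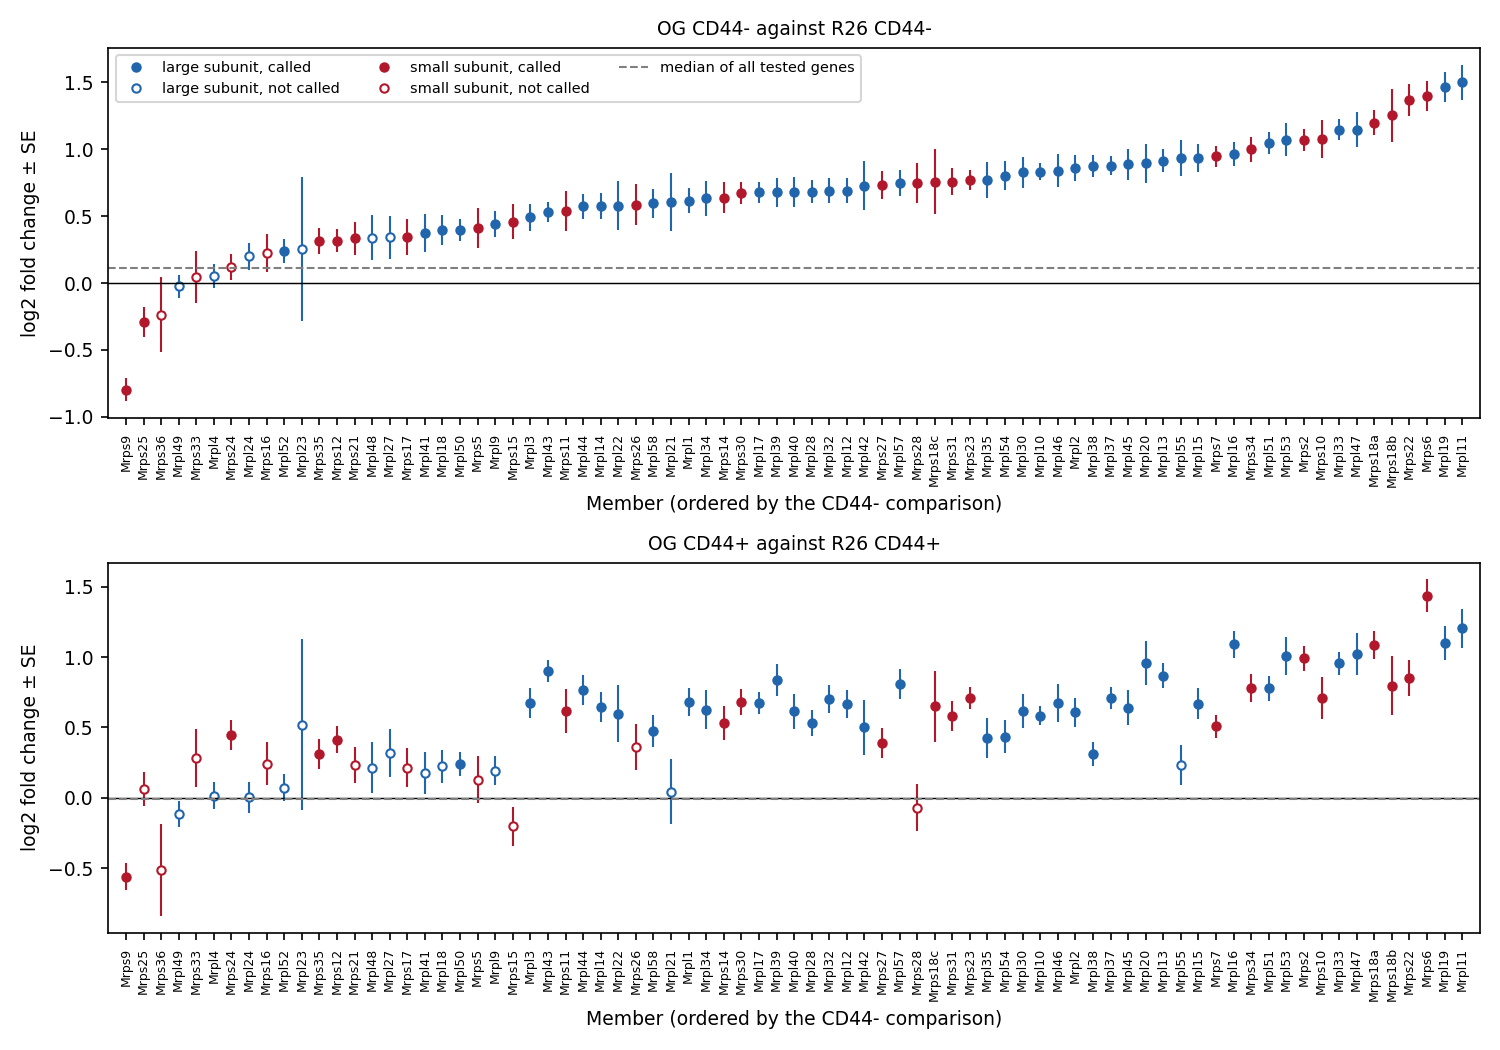
Log2 fold change ± SE of each of the 77 tested members for OG against R26 in CD44- cells (top) and CD44+ cells (bottom), ordered by the top panel. Filled points were called, open points were not, blue is large and red is small subunit, and the dashed line is the median of all tested genes. In the top panel 73 of 77 points lie above 0 and in the bottom panel 72, and Mrps9 lies lowest in both panels.

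In CD44+ cells the members again stood higher in OG. The large subunit sums were 562, 614, 586 and 555 CPM in the R26 and 806, 852, 871 and 879 CPM in the OG animals, and the small subunit sums were 254, 269.7, 256 and 264 and 348, 370.1, 373 and 378 CPM, without overlap. Of 77 members, 54 were called higher and 1 lower, beside 34.5% and 34.6% of all genes tested. The groups did not overlap for 46 members higher and 1 lower in OG, beside 29.3% and 28.3% of all genes. The median log2 fold change was 0.62 for the large and 0.44 for the small subunit and -0.01 for all genes tested. Calls were made for 36 of 48 large subunit members and for 18 higher and 1 lower of 29 small subunit members. All 10 AT2 markers were lower in this comparison too, and the AT1, fibroblast and ciliated sums were higher and the endothelial sum lower without overlap. The sums hide members that went the other way: 3 fibroblast markers were called higher and 3 lower of 8, and 5 AT1 markers higher and 3 lower of 8. Their part in the result was not tested.

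Mrps6 was at 9.36, 6.65, 5.92 and 8.10 CPM in R26 CD44+ and 19.2, 21.0, 21.2 and 20.1 CPM in OG CD44+ cells, the widest difference of a member here (1.44 ± 0.12, edgeR adjusted p = 8.27e-11). Its groups were far apart. Mrpl11 rose by 1.20 ± 0.14, Mrpl19 by 1.10 ± 0.12 and Mrps18a by 1.08 ± 0.10. Mrpl16, which lies near the peptidyl transferase centre, was at 6.84, 8.08, 8.44 and 7.35 CPM in R26 and 16.4, 15.6, 16.04 and 17.4 CPM in OG, without overlap (1.09 ± 0.10, edgeR adjusted p = 5.17e-10). Mrpl33 was at 14.2, 16.7, 14.3 and 13.3 CPM and 28.7, 26.8, 28.9 and 28.8 CPM (0.96 ± 0.08), and Mrpl43 at 14.7, 15.8, 15.7 and 13.5 CPM and 26.6, 28.2, 26.4 and 30.1 CPM (0.90 ± 0.08). Both pairs of groups stood apart. Mrpl43 shares 33.4% of its exon bases with Twnk, the mitochondrial DNA helicase gene on the other strand, and Twnk fell by 0.44 ± 0.13. Mrpl13, Mrpl37, Mrps2, Mrps23, Mrps30 and Mrps34 rose by 0.68 to 0.99 without overlap. Mrps9 was again lower, at 21.3, 24.7, 26.3 and 28.1 CPM in R26 and 15.5, 18.3, 15.9 and 18.4 CPM in OG (-0.56 ± 0.09, edgeR adjusted p = 1.18e-05), and no OG library reached an R26 library.

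**Figure D3:**
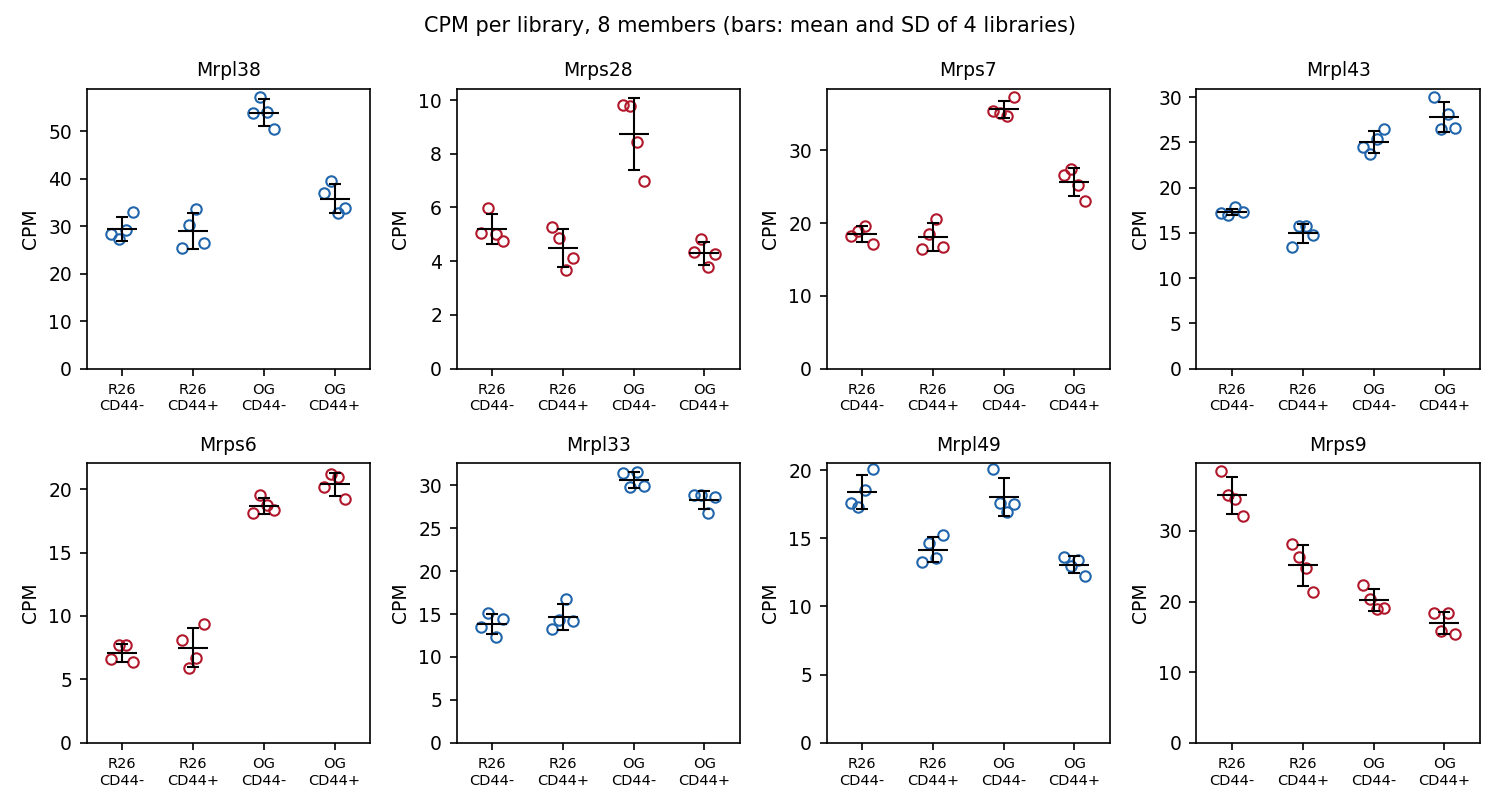
CPM in each library (points) with mean and SD bars for 8 members, large subunit in blue and small subunit in red, by group. Mrpl38, Mrps28 and Mrps7 are high in OG CD44- cells, Mrps6 and Mrpl33 are high in both OG groups, Mrpl43 is highest in OG CD44+ cells, Mrpl49 is low in both CD44+ groups, and Mrps9 is lower in OG than in R26.

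The 2 subunits kept a narrow range of proportions. The summed large subunit level divided by the summed small subunit level was 2.28, 2.22, 2.13 and 2.17 in R26 CD44-, 2.22, 2.28, 2.29 and 2.10 in R26 CD44+, 2.31, 2.33, 2.32 and 2.42 in OG CD44- and 2.31, 2.30, 2.33 and 2.32 in OG CD44+ libraries. All OG libraries were thus above all R26 libraries, 2.30 to 2.42 against 2.10 to 2.29. Without Mrps9 the ratio was 2.36 to 2.56 in R26 and 2.41 to 2.56 in OG, and the ranges overlapped. With Mrps18a and Mrps30 counted in the large subunit and Mrps36 left out, as in the structures, medians in CD44- cells were 0.69 for large and 0.61 for small, and in CD44+ cells 0.63 and 0.43. Divided by mRNA length and averaged over all libraries, the median level was 9.81 CPM per kb for large subunit members, from 0.815 for Mrpl23 to 54.9 for Mrpl52. For small subunit members it was 7.32 CPM per kb, up to 26.4 for Mrps34.

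Other nuclear genes around the mitochondrial ribosome differed between OG and R26 to varying extents. The counts of each list stand against all genes tested, of which 39.4% rose and 29.6% fell in CD44- cells and 34.5% rose and 34.6% fell in CD44+ cells. Of the 5 ribosomal proteins that lack the prefix, Ptcd3, Chchd1, Aurkaip1 and Gadd45gip1 rose in CD44- cells, by 0.55 to 0.63, and in CD44+ cells, by 0.32 to 0.74. Dap3, the GTP-binding protein of the small subunit, was the remaining one, at -0.04 ± 0.08 and -0.09 ± 0.08. Of 30 genes for assembly and ribosomal RNA modification, 13 rose and 4 fell in CD44- cells, with a median of 0.21, and 9 rose and 7 fell in CD44+ cells. The shares that rose, 43.3% and 30%, were near those of all genes. Ddx28 and Fastkd2, which act in large subunit assembly, rose by 1.14 ± 0.19 and 1.12 ± 0.11 in CD44- cells, and Trmt61b, a tRNA and rRNA methyltransferase, fell by 0.96 ± 0.26. Mettl5 on this list acts on cytosolic ribosomal RNA. Of 22 translation factors and related genes, 11 rose and 3 fell in CD44- cells and 10 rose and 4 fell in CD44+ cells. The elongation factors Gfm1 and Tufm rose by 1.34 ± 0.08 and 0.95 ± 0.11 in CD44- cells, as did Slirp, a partner of mitochondrial mRNAs (1.13 ± 0.13).

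Of 24 genes for mitochondrial transcription and genome upkeep, 12 rose and 4 fell in CD44- cells (50% and 16.7%) and 8 rose and 8 fell in CD44+ cells, where 33.3% in each direction was near the shares of all genes. The accessory subunit of the mitochondrial DNA polymerase, Polg2, went from 22.7 ± 1.70 to 2.95 ± 0.490 CPM in CD44- cells (-2.94 ± 0.12) and from 23.3 ± 1.55 to 2.85 ± 0.432 CPM in CD44+ cells (-3.03 ± 0.13). The catalytic subunit Polg fell by 0.92 ± 0.07 and 0.81 ± 0.07. Tfam, which packages mitochondrial DNA, rose by 0.33 ± 0.08 and 0.30 ± 0.09. Of 19 regulators of mitochondrial biogenesis, 8 rose and 4 fell in CD44- cells (42.1% and 21.1%), and 3 rose and 7 fell in CD44+ cells (15.8% and 36.8%), beside the shares of all genes given above. Myc rose from 21.9 ± 0.453 to 62.5 ± 6.58 CPM in CD44- cells (1.52 ± 0.09) and Atf5 from 32.9 ± 3.49 to 167 ± 4.54 CPM (2.35 ± 0.09). The coactivators Ppargc1a and Ppargc1b fell by 0.91 ± 0.10 and 2.07 ± 0.26, and Gabpb2, a partner of the ETS factor GABPA, fell by 1.06 ± 0.05.

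The transcripts that the mitochondrial ribosome translates went the other way. Summed over 13 mitochondrially encoded genes, levels were 30921 ± 3554 CPM in R26 CD44-, 55738 ± 8592 in R26 CD44+, 15429.9 ± 1219 in OG CD44- and 20291 ± 1582 in OG CD44+ libraries, with no OG library above an R26 library. In each sort 12 of 13 fell in OG, with medians of -0.88 in CD44- and -1.28 in CD44+ cells. COX1, a core subunit of cytochrome oxidase, fell by 1.06 ± 0.09 and 1.55 ± 0.09, and CYTB, of complex III, by 1.11 ± 0.12 and 1.51 ± 0.12. ATP8, the remaining gene, stood at -0.47 ± 0.38 and -0.59 ± 0.40. The ribosomal RNAs mt-Rnr1 (12S) and mt-Rnr2 (16S) were at -0.16 ± 0.15 and -0.11 ± 0.22 in CD44- cells, neither called, and mt-Rnr1 fell by 0.54 ± 0.15 in CD44+ cells. The library kit removes ribosomal RNA, so these 2 levels are what remained after removal. Nuclear genes chosen by symbol for the respiratory chain and ATP synthase, 8 Ndufaf assembly factors among them, rose for 65 of 91 and fell for 3 in CD44- cells (median 0.50), and rose for 63 and fell for 4 in CD44+ cells (median 0.56). Genes chosen by the symbols of cytosolic ribosomal proteins rose for 47 of 89 (52.8%) and fell for 2 in CD44- cells (median 0.26). In CD44+ cells they rose for 54 and fell for 4 (median 0.29). That list also took in Rpl31-ps12 and Rpl34-ps1, which have pseudogene symbols but are protein coding in the annotation used. It further held related genes such as Rpl7l1, Rpl22l1, Rpl37rt and Rps27rt, and Rps19bp1, which is no ribosomal protein.

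**Figure D4:**
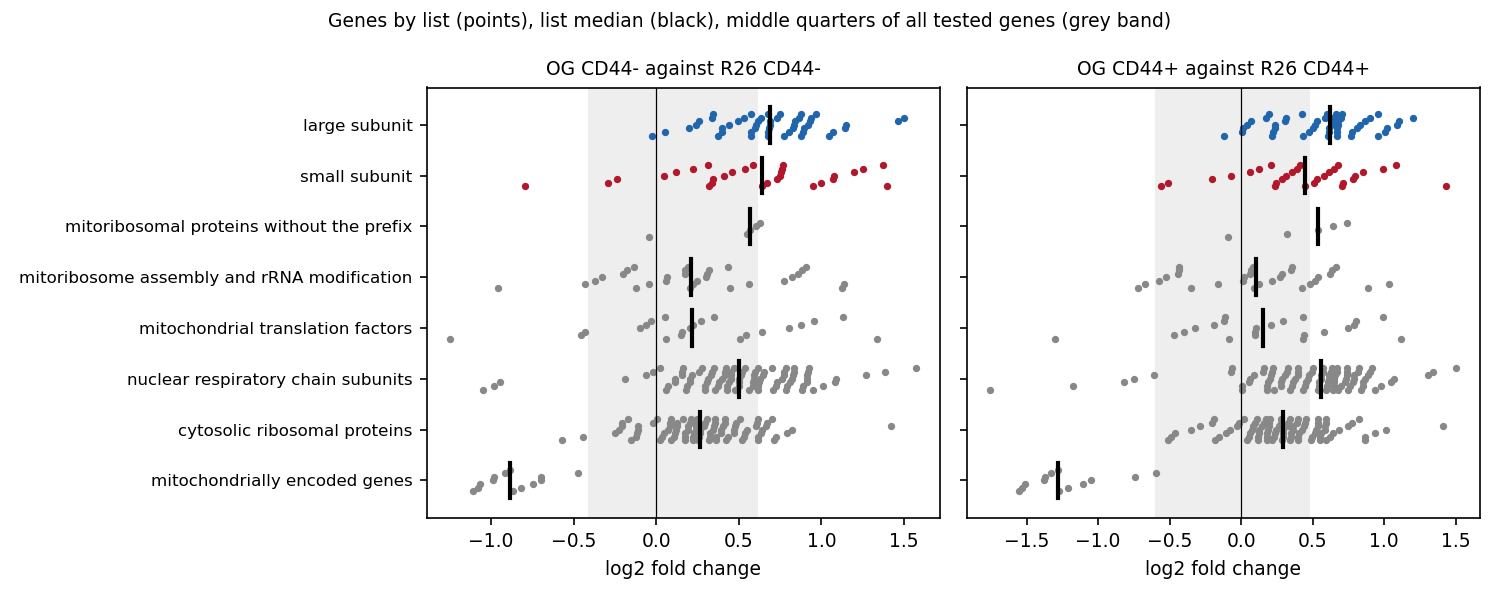
Log2 fold changes for OG against R26 in CD44- (left) and CD44+ cells (right) of single genes (points) by list, with the list median (black) and the interquartile band of all tested genes (grey). The respiratory chain and cytosolic ribosomal lists were taken by symbol and hold extra genes such as those named in the text. Medians of both subunits lie above 0.4 in both panels, and all mitochondrially encoded genes lie below 0.

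Within OG animals, CD44+ cells carried less of many members than CD44- cells. The large subunit sums were 1012 ± 22.9 CPM in CD44- and 852 ± 32.5 CPM in CD44+ libraries, and the small subunit sums 432 ± 4.55 and 368 ± 13.3 CPM, without overlap in either. Of 77 members, 36 were called lower, 25 large and 11 small, beside 28.0% of all genes tested, and all CD44+ libraries lay below all CD44- libraries for 38 members, beside 28.4% of all genes. No member was called higher by edgeR (1 at an unadjusted p under 0.05, and 0 with DESeq2), beside 22.3% of all genes. The median was -0.24 for each subunit and -0.06 for all genes. The count of lower calls was 22, 23 and 23 without the R26 CD44- library of animal 8, 7 and 2, and 22 with an OG library as TMM reference, where 28.6% of members and 22.2% of all genes were lower. The members' median stayed 0.18 below that of all genes with that reference. All 10 AT2 markers were lower in CD44+ cells, and the leukocyte, fibroblast, ciliated, club and cycling marker sums were higher without overlap, as given above. All 8 fibroblast, 8 ciliated and 6 club markers were called higher. Of 8 tested leukocyte markers 4 were higher and 1 lower, and 1 of 8 cycling markers was higher. Of 8 AT1 markers 3 were higher and 2 lower, and of 6 endothelial markers 3 were lower. Their part in the result was not tested.

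Mrps28 was at 6.98, 8.44, 9.77 and 9.82 CPM in OG CD44- and 4.27, 3.77, 4.82 and 4.34 CPM in OG CD44+ cells. No CD44+ library reached a CD44- library, and the log2 fold change was -1.03 ± 0.15 (edgeR adjusted p = 7.01e-06), the widest among members. Mrpl38 was at 50.5, 54.1, 57.3 and 53.8 CPM and 33.8, 32.7, 39.5 and 37.0 CPM, also apart (-0.60 ± 0.08, edgeR adjusted p = 1.53e-06). Mrps7 was at 37.4, 34.8, 35.2 and 35.4 CPM and 23.1, 25.3, 27.5 and 26.6 CPM (-0.48 ± 0.07, edgeR adjusted p = 1.26e-05), with the groups apart. Mrpl47 at the tunnel exit fell by 0.66 ± 0.13, Mrps15, which contacts the 12S RNA, by 0.60 ± 0.13 and Mrps22 by 0.48 ± 0.11. Mrpl2, of the peptidyl transferase core, fell by 0.39 ± 0.09. Mrpl49 fell from 18.0 ± 1.39 to 13.1 ± 0.613 CPM (-0.46 ± 0.09). Mrps2, Mrps31, Mrpl52 and Mrpl54 fell by 0.32 to 0.45. Mrps6, Mrpl33 and Mrpl11 stood at 0.12 ± 0.10, -0.12 ± 0.07 and -0.10 ± 0.12, and none was called.

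Within R26 animals the same comparison gave fewer calls. The large subunit sums were 634 ± 25.7 CPM in CD44- and 579 ± 26.8 CPM in CD44+ libraries, which overlapped, and the small subunit sums were 288 ± 6.63 and 261 ± 7.34 CPM, which did not. Of 77 members 10 were called lower, 7 large and 3 small, beside 15.4% of all genes tested, so the members' share of 13% was near that of all genes. By edgeR 0 were called higher (1 at an unadjusted p under 0.05, and 0 with DESeq2), beside 21.6% of all genes. The libraries did not overlap for 9 members lower and for 1, Mrpl55, higher, beside 11.6% and 17.2% of all genes. The median was -0.14 for the large and -0.12 for the small subunit and -0.02 for all genes. The count of lower calls changed with the libraries fitted. Without the CD44- library of animal 8, 7, 2 or 1 it was 20, 20, 22 and 22. These were 26% to 28.6% of members, beside 23.2% to 23.5% of all genes. Without the CD44+ library of animal 8, 7, 2 or 1 the count was 18, 24, 26 and 18. These were 23.4% to 33.8% of members, beside 22.4% to 28.2% of all genes. With OG libraries as TMM reference the count reached 26, and all genes tested then split into 19.2% higher and 31.1% lower. AT2 markers were lower in CD44+ cells for 10 of 10, and the sums of every other marker list except the basal one were higher without overlap, although 1 of 8 AT1 markers was called lower. Their part in the result was not tested.

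Mrps9 was at 32.1, 34.6, 35.1 and 38.4 CPM in R26 CD44- and 21.3, 24.7, 26.3 and 28.1 CPM in R26 CD44+ cells. The groups did not overlap (-0.48 ± 0.09, edgeR adjusted p = 1.17e-04). It also fell between the OG sorts (-0.25 ± 0.09), so that the means ran from R26 CD44- down through R26 CD44+ and OG CD44-, whose libraries overlapped, to OG CD44+ cells. Mrpl49 was at 20.1, 18.6, 17.3 and 17.6 CPM and 15.3, 13.5, 14.6 and 13.3 CPM, without overlap (-0.37 ± 0.09, edgeR adjusted p = 0.00191). Mrpl47 fell by 0.53 ± 0.15, Mrpl44, which resembles an RNase III enzyme, by 0.38 ± 0.11 and Mrps24 by 0.44 ± 0.11, each without overlap. Of the exon bases of Mrps24, 15.4% are shared with Urgcp on the same strand. Mrpl14, Mrpl32, Mrpl57 and Mrps2 fell by 0.24 to 0.44 with overlapping groups. Mrps2 lost its call with the animal as a block (adjusted p = 0.0659) and without the OG CD44- library of animal 7, 6 or 3 (0.0505, 0.0504 and 0.05001). Without the low count filter Mrps2 (0.0891) and Mrpl32 (0.0510) lost theirs. With only the R26 libraries fitted, Mrpl32, Mrpl47, Mrpl57 and Mrps2 were not called (adjusted p of 0.0659 to 0.204). Between the R26 sorts the mitochondrially encoded genes rose for 8 of 13, beside 21.6% of all genes, and between the OG sorts for 4 of 13 (30.8%), beside 22.3% of all genes. COX1 rose by 0.95 ± 0.09 in R26 and by 0.46 ± 0.09 in OG.

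Whether CD44+ and CD44- cells differed by the same amount in OG as in R26 animals was tested as the difference of the 2 log2 fold changes. Of 77 members 6 were called lower, 2 large and 4 small, and 1 higher, beside 18.1% and 6.57% of all genes tested. With OG libraries as the scaling reference the shares of all genes became 13.3% lower and 10.9% higher, or 12.1% and 12.7%. The 6 lower calls became 3, 3 and 1 without the R26 CD44- library of animal 8, 7 and 1, and 3 without the R26 CD44+ library of animal 8 or 2. The 1 higher call became 2 to 5 without each of 7 R26 libraries (all but that of CD44- animal 2). In the fits that left out 1 R26 library, 10.5% to 13.4% of all genes were lower and 11% to 15.4% higher. In this test 7 of 8 fibroblast, 5 of 6 endothelial and 4 of 8 tested leukocyte markers were also called lower. So were 4 of 8 cycling, 6 of 8 AT1 and 6 of 10 AT2 markers. Of 8 ciliated markers 2 were called higher, and of 6 club markers 1 was. The part of all these markers in the result was not tested. Mrpl38 was at 32.9, 29.2, 27.2 and 28.4 CPM in R26 CD44- and 26.5, 33.6, 30.2 and 25.3 CPM in R26 CD44+ cells, with overlapping groups. Set against its fall in OG this gave a difference of -0.57 ± 0.12 (edgeR adjusted p = 9.62e-04). Mrpl43 went the opposite way: it fell between the R26 sorts, 17.3, 17.8, 17.0 and 17.2 CPM against 14.7, 15.8, 15.7 and 13.5 CPM (-0.22 ± 0.08), and stood at 0.15 ± 0.07 between the OG sorts, a difference of 0.37 ± 0.11 (edgeR adjusted p = 0.0139).

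Mrpl55 was at 4.59, 5.41, 5.001 and 5.17 CPM in R26 CD44- and 5.81, 6.53, 7.27 and 6.22 CPM in R26 CD44+ cells, with the CD44+ group above, and at 8.60, 10.1, 9.90 and 9.95 and 8.14, 6.08, 7.23 and 8.99 CPM in the OG sorts, with overlap (-0.70 ± 0.19 for the difference). Mrps28 was at 5.19 ± 0.545 and 4.48 ± 0.715 CPM in the R26 sorts (-0.82 ± 0.23). Mrps15 was at 8.38 ± 0.427 and 8.81 ± 1.71 CPM in R26 and 11.5 ± 0.708 and 7.61 ± 1.14 CPM in OG (-0.66 ± 0.19). Mrps7 and Mrps22 gave -0.44 ± 0.11 and -0.52 ± 0.18. Several of these calls were lost in fits without 1 R26 library. Leaving out any R26 library also moved the median difference of all genes, from -0.10 to between 0.02 and 0.03. Without any 1 OG library that median stayed at -0.10 to -0.09. Mrpl55 lost its call without the CD44- library of animal 7 or 1 or the CD44+ library of animal 7 (adjusted p = 0.0530, 0.0686 and 0.0703). Mrps28 lost it without CD44- animal 1 or CD44+ animal 8 (0.0538 and 0.0593). Mrps7 lost it without CD44- animal 8 or 1 or CD44+ animal 7 or 2 (0.0627, 0.0860, 0.0648 and 0.0797). Mrps15 lost it without any 1 of the CD44- libraries or without CD44+ animal 8 or 2 (0.0503 to 0.0782). Mrps22 was called in the fit of all 16 libraries but not without any of 12 of them in turn (0.0539 to 0.206), nor with DESeq2 (0.0662). The calls for Mrpl38 and Mrpl43 held without any single library. For Mrps28 and Mrps15, OG CD44+ against R26 CD44+ cells stood at -0.07 ± 0.17 and -0.20 ± 0.14, neither called. In Mrps6, by contrast, both OG groups were high and both R26 groups low (0.04 ± 0.16 for the difference, edgeR adjusted p = 0.892).

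**Figure D5:**
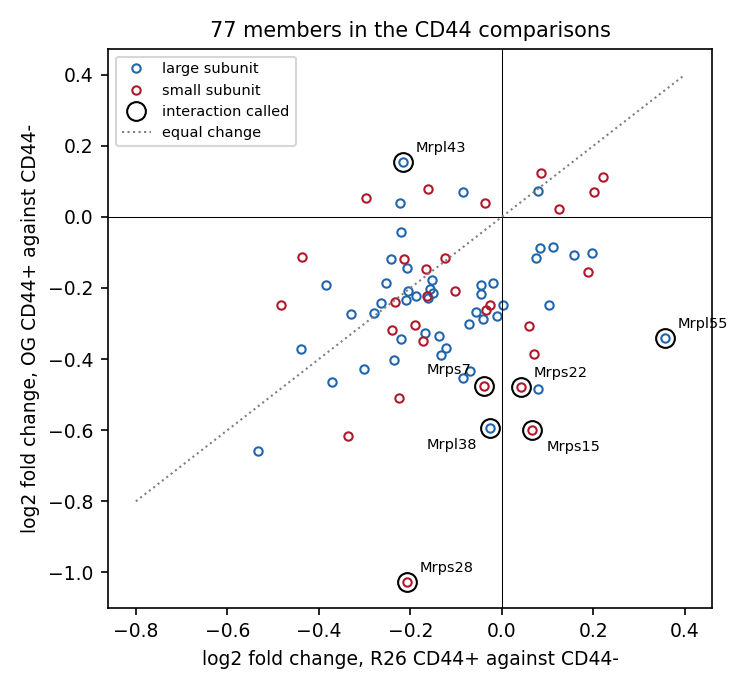
Log2 fold change of CD44+ against CD44- cells in OG animals (vertical) plotted against that in R26 animals (horizontal) for 77 members, large subunit in blue and small subunit in red. Circled points were called for the difference between the prefixes, the dotted line marks equal change, and Mrpl43 is the 1 circled point above the line.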

How the data were processed

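RNA was measured in 16 libraries from 8 mice, 4 per group. The authors deposited unnormalized whole-number counts for each gene. Reads were aligned to mm10 with Bowtie2, per the submitters' processing notes, and a strand-marking kit depleted ribosomal RNA from total RNA, per the labels' protocols. The counting program, annotation and strand setting are not given in the sources used here. Symbols were matched for 25275 of 27179 identifiers (93.0%) through a RefSeq table of GRCm38.p6, and exon overlaps and mRNA lengths came from GENCODE models of the same genome.

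CPM and tests used R 4.3.3 with edgeR 4.0.16 and limma 3.58.1: filterByExpr, TMM scaling, then quasi-likelihood F tests (robust) in which each of the 4 groups has its own mean and all 16 libraries share the spread. Benjamini-Hochberg adjustment covered 15516 genes, with no fold minimum. The SE is the size of the log2 fold change divided by the square root of F. Library totals of 9022471 to 21363816 put 3 counts at no more than 0.356 CPM, which covers counting error only. The members and lists were chosen with earlier results of these data known. Named members had the 6 smallest adjusted p per subunit, the direction with fewer calls, the 3 widest differences, extreme levels, a subunit other than their symbol says, or an overlapping gene, and each list gave up to 4 genes. Genes of the lists beyond the smallest 4, such as Dap3, Tfam, Polg, ATP8 and Trmt61b, were named after their values were seen.

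The column names carry a number in each sort, and the design text counts 4 lungs per genotype. Libraries with the same prefix and number were therefore taken to come from 1 animal, which no label states. The main tests did not use this pairing. Deviations of such pairs from their group means correlated at 0.127 to 0.240 in R26 and 0.0199 to 0.0967 in OG. Each CD44- library correlated best with the CD44+ library of the same number. Alternatives were DESeq2 1.42.0 size factors and Wald test, no low count filter, only the compared libraries, the animal as replicate block, each library left out, and TMM with each OG library as reference. Leaving out both libraries of OG animal 3, the count over members with little exon overlap and the ratio without Mrps9 were chosen after seeing the data. The edgeR script was tested on simulated data.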

Additional observations from a re-analysis of the deposited data

Results flagged for a closer look

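In 4 of 152 groups of 4 libraries examined, 1 library stood apart from the other 3, and chance flags about 1 in 20 groups. Mrpl10 in OG CD44- cells was highest in animal 7 at 51.7 CPM, with the others at 48.1 to 48.7. Mrpl55 in OG CD44- cells was lowest in animal 3 at 8.60 CPM, with the others at 9.90 to 10.1. Mrpl33 in OG CD44+ cells was lowest in animal 5 at 26.8 CPM, with the others at 28.7 to 28.9. The ratio of the large to the small subunit sum without Mrps9 in OG CD44- cells was highest in animal 7 at 2.56, with the others at 2.41 to 2.43.

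The CD44 difference itself differed between OG and R26 for 7 members by edgeR's test of the difference. These were 1.3% of members higher and 7.79% lower, below the 6.57% and 18.1% of all genes tested. The log2 differences were -0.57 for Mrpl38 (adjusted p = 9.62e-04), -0.44 for Mrps7 (0.00589), -0.82 for Mrps28 (0.00982), -0.70 for Mrpl55 (0.0104), -0.66 for Mrps15 (0.0126), -0.52 for Mrps22 (0.0318) and 0.37 for Mrpl43 (0.0139). Mrpl43 was the 1 member called with a positive difference, while 21 of 77 members had a difference above 0, and 2 to 5 were called higher with OG scaling references or without single R26 libraries.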

How the results depend on the processing

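Counts of members called higher between OG and R26 moved by less than 1.5 times under every alternative, and no named value reversed. Without the low count filter 1 member in place of 2 was lower in OG CD44- cells. Of the 0 members higher in OG CD44+ against CD44- cells, DESeq2 size factors and both OG scaling references gave 1 and the compared libraries alone gave 2, and the 36 lower became 22 with the reference giving fewest calls. The 10 lower in R26 became 20 with DESeq2 size factors, 17 with the DESeq2 Wald test, 18 and 26 with OG references and 5 with the compared libraries alone. In the same order these were 26%, 22.1%, 23.4%, 33.8% and 6.58% of members. The shares of all genes lower were 22.1%, 22%, 21%, 31.1% and 9.3%, so the members' shares stayed near them. The 1 member higher in the difference of differences became 2 and 4 with OG references.

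Leaving out each library gave 0 to 1 higher and 22 to 33 lower in OG, 0 to 1 and 9 to 26 in R26, 54 to 66 higher and 1 to 2 lower for OG against R26 in CD44- cells, 52 to 57 and 1 to 1 in CD44+ cells, and 1 to 5 and 1 to 7 in the difference of differences. The share of all genes called lower in these fits ran from 22.1% to 25.8% in OG and from 14.7% to 28.2% in R26. Without both libraries of OG animal 3, an alternative chosen after seeing the data, 24 members (31.2%) were lower in OG, beside 23% of all genes. Mrps31 lost its call there. With the animal as replicate block, 38 members were lower in OG, 12 in R26 and 8 in the difference of differences. The shares of all genes lower with the block were 30.8%, 19.1% and 22.7%, beside 49.4%, 15.6% and 10.4% of members. Among named members only Mrps2 in R26 lost its call with the block. The changes with scaling moved all genes together: the members' median minus that of all genes stayed at -0.18 in OG and -0.12 in R26 under TMM, DESeq2 size factors and OG references. Depth limits Mrpl36, with 0 to 3 counts in a library, and Mrpl23, with 0 to 15.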

Other observations

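Of the assembly and ribosomal RNA modification genes, 13 of 30 fell in OG CD44+ against CD44- cells, and of the transcription and genome genes 11 of 24, beside 28.0% of all genes tested. In R26 these counts were 4 of 30 and 4 of 24, near the 15.4% of all genes. Atf5, a stress-responsive transcription factor, was at 32.9 ± 3.49 and 50.8 ± 9.46 CPM in the R26 sorts and 167 ± 4.54 and 93.3 ± 1.31 CPM in the OG sorts. It rose with CD44 in R26 (0.63 ± 0.10) and fell in OG (-0.84 ± 0.08), a difference of -1.47 ± 0.13 by edgeR's test (adjusted p = 7.23e-08). Myc rose with CD44 in R26 (0.82 ± 0.09) and stood at -0.15 ± 0.08 in OG, a difference of -0.96 ± 0.12 (adjusted p = 2.81e-06).

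Pprc1, a coactivator of NRF1, fell in OG (-0.56 ± 0.08) and stood at 0.05 ± 0.09 in R26, a difference of -0.61 ± 0.12 (adjusted p = 6.13e-04). Lrpprc, which stabilises mitochondrial mRNAs, differed by -0.44 ± 0.09 (adjusted p = 9.47e-04) and the elongation factor Gfm1 by -0.53 ± 0.11 (adjusted p = 0.00115). Mtg2, a GTPase of large subunit assembly, fell in OG (-0.72 ± 0.13) and stood at -0.08 ± 0.13 in R26, a difference of -0.64 ± 0.18 (adjusted p = 0.0118). These genes were chosen after their values were seen.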
